A study of Mus musculus with 6 samples.

Results

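The genes described here are 10 that encode neuron-enriched RNA-binding proteins of 4 families: Elavl2, Elavl3 and Elavl4, Celf2, Celf4 and Celf5, Nova1 and Nova2, and Rbfox1 and Rbfox3. They were taken by gene symbol from the 55341 genes listed in the count tables, by a rule that uses no measured value, although the 10 symbols were chosen with earlier results of these data known. All 10 were among the 16729 genes that had enough counts to be tested. The samples were 6 RNA-seq libraries from primary cultures of cerebellar granule neurons (CGNs), made from the cerebella of CD1-IGS mice dissected between P6 and P8, with granule neuron progenitors enriched on a Percoll gradient. All cultures received cytosine arabinoside, which stops dividing cells, at day in vitro (DIV) 2. In 3 of them the vehicle DMSO was added once at DIV3, and in the other 3 GSK-126, an inhibitor of the histone methyltransferase EZH2, was added once at DIV3, with no dose named for this addition in the labels. Per the study's methods RNA was collected at DIV5, and a replicate is a culture of cells pooled from litters, while the labels name cerebellum as the tissue and DIV3 as the time. The study chose DIV3 because by then many promoters of early-expressed genes had gained the repressive histone mark H3K27me3. With it the study addressed the possibility that raised early genes hold back late ones. The comparison here is of the RNA of the 10 genes between the 2 groups.

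Proteins of these families read short sequences in RNA and set which exons are spliced in, how long an mRNA lasts and how well it is translated. The neuronal ELAVL (Hu) proteins bind U-rich stretches and are among the earliest proteins of a postmitotic neuron, CELF proteins bind GU-rich sequence, NOVA proteins bind clusters of YCAY, and RBFOX proteins bind GCAUG. Rbfox3 encodes NeuN, the antigen used to mark nuclei of mature neurons, which is abundant in granule neurons. EZH2 places H3K27me3, a repressive histone mark of promoters, gene bodies and regions between genes.

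The start sites of these genes differ in base composition. Promoter windows were taken from RefSeq (GRCm38.p6), each with 250 bases before and 50 after a start. Of the 10 genes 9 had at least 1 window, 26 in all, and Celf4 is named only. Of 32851 such windows in the genome the median held 7 CpG dinucleotides. Shown 5′ to 3′ on the gene's strand, with every CpG in capitals, are the windows of Elavl3 (chr9:22051974-22052273, minus strand), which is CpG-rich, of Nova2 (chr7:18925638-18925937, plus strand), and of Rbfox3 (chr11:118760992-118761291, minus strand), which is CpG-poor. Elavl3 and Rbfox3 are genes that were called lower with GSK-126 in the paired test given below, and Nova2 was not called.
Elavl3: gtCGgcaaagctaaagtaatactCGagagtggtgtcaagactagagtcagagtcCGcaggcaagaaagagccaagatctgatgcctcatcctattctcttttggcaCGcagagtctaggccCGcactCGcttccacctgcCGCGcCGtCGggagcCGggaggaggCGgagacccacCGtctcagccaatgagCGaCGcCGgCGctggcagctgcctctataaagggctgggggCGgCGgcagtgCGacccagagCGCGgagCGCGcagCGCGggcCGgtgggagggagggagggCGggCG
Nova2: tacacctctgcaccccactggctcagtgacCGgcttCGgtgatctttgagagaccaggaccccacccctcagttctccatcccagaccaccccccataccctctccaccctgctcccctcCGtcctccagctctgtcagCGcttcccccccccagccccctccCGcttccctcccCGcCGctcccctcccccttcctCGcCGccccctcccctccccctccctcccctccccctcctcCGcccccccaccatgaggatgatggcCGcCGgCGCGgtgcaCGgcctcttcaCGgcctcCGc
Rbfox3: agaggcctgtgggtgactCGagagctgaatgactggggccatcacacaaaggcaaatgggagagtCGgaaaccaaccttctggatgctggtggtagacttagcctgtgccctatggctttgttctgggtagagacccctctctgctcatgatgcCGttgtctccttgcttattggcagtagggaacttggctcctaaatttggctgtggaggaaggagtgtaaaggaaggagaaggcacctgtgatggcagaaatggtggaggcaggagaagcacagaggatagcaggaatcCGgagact
The Elavl3 window held 29 CpG, at percentile 87.1 of all windows, that of Nova2 held 17, at percentile 68.6, and that of Rbfox3 held 4, at percentile 31.4. Among genes called lower, windows held 10 to 27 CpG for Elavl2, 11 to 23 for Celf5 and 3 to 7 for Rbfox1. Among genes not called, they held 4 to 23 for Elavl4, 4 to 48 for Celf2 and 14 for Nova1. The GC box GGGCGG, searched on both strands, occurred 2 times in the Elavl3 window, 2 times in that of Nova2 and 0 times in that of Rbfox3, against 35.7% of all windows with at least 1. The motif CAGATG, an E-box that NEUROD1 and ATOH1 can bind, was in none of these 3 windows and in 17.2% of all windows. Among the other genes with windows, the most GC boxes in a window were 4 for Elavl2 and 3 each for Celf2 and Celf5. Elavl4, Nova1 and Rbfox1 had 0. Of these genes, only Elavl4 had a window with CAGATG. The RefSeq start of Rbfox3 lies inside the longer gene of the GENCODE annotation (chromosome 11, 118489762 to 118911597), so this window is not its only start. No measurement of H3K27me3 was used here, and the matches are a description of the sequence.

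Depth was 7407189 to 13092763 counts on genes per library, which gave the 10 genes between 88 and 7639 counts in a library. No library was a copy of another. Libraries with the same replicate number deviated together from their group means, with correlations across genes of 0.56, 0.63 and 0.49 (genes are not independent replicates), and the replicate number was therefore treated as a pair. All 10 genes were highest in replicate 2 among the DMSO cultures, and 9 were among the GSK-126 cultures, Elavl2 being the exception. In the gene tests below that ignore the pairs, p-values rest on the spread between these cultures only. With the pairs, p-values and standard errors rest on the spread of the treatment difference across these 3 pairs only. In both, edgeR draws each gene's spread towards that of other tested genes. A standard error therefore need not match the scatter of a gene's own 3 log2 ratios.

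The fit that ignores the pairs called none of the 10 genes (edgeR's quasi-likelihood test, Benjamini-Hochberg adjusted p between 0.953 and 0.961). It called 0% of all tested genes, and 1 member, Elavl2, had an unadjusted p under 0.05, against 2.21% of tested genes that were lower at that level. DESeq2 without pairs called 0 of the 10 genes. With the replicate number as a block, edgeR called 6 of the 10 genes lower at an adjusted p under 0.05: Elavl2, Elavl3, Celf4, Celf5, Rbfox1 and Rbfox3. This fit called 5.09% of all tested genes lower and 3.35% higher, and 0 of the 10 genes were called higher. All 10 fitted values were below 0, with a median log2 fold change of −0.29, where the median of all tested genes was −0.0056. Within pairs, 9 of the 10 genes were lower with GSK-126 in all 3 pairs, against 22.8% of tested genes, and the exception was Celf2. The ranges of the groups did not overlap for 2 of the 10 genes, Elavl2 and Celf5, against 4.72% of tested genes that were lower with no overlap. With 3 against 3 libraries an exact permutation test that ignores the pairs cannot give a two-sided p under 0.1.

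**Figure D1:**
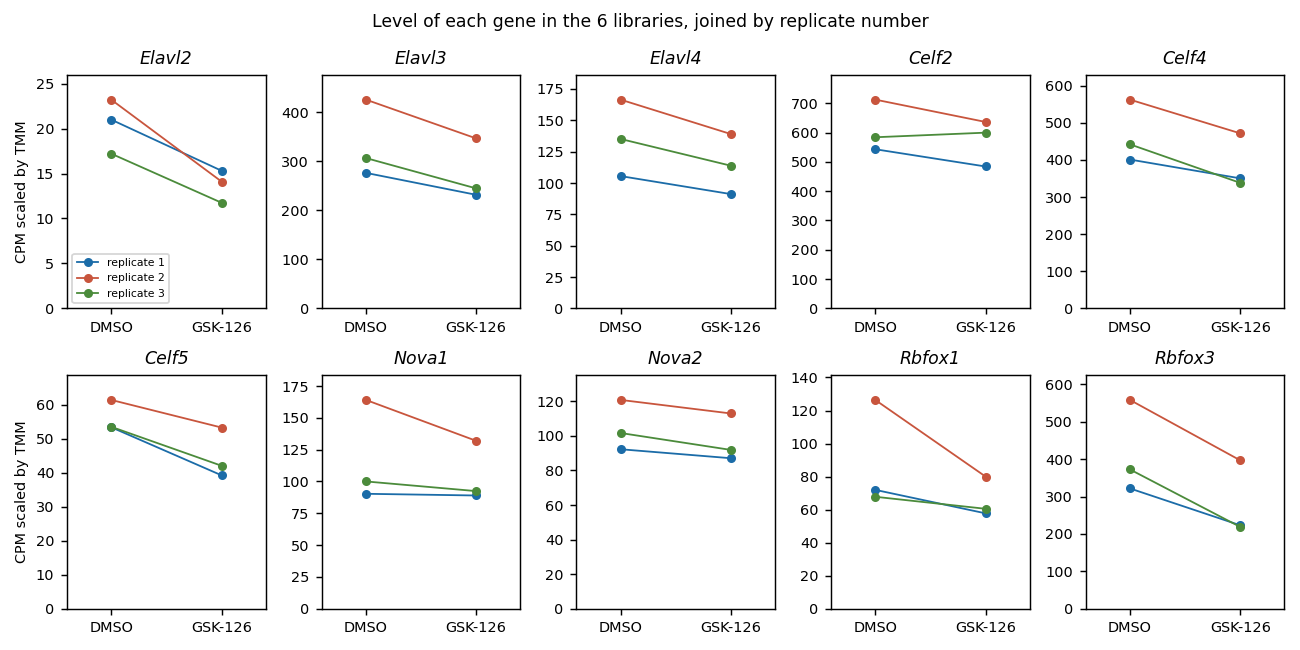
Expression of the 10 genes in each of the 6 libraries. The vertical axis of each panel is CPM scaled by TMM factors and starts at 0; points are libraries, and lines join the DMSO and GSK-126 libraries of 1 replicate number. Replicate 2 lies highest in DMSO in every panel, and all lines slope down except that of Celf2 in replicate 3.

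Levels are given as CPM, the counts scaled to a common library size and adjusted by TMM factors, in the order replicate 1, 2 and 3, and log2 fold changes and standard errors (SE) are those of the paired edgeR fit, with Benjamini-Hochberg adjusted p-values. Rbfox3 had the lowest fitted value of the 10 genes. It stood at 322, 559 and 373 CPM with DMSO and at 223, 397 and 219 CPM with GSK-126. Every GSK-126 culture was lower than its DMSO partner, but the GSK-126 culture of replicate 2 was above the DMSO cultures 1 and 3, so the groups overlapped. The log2 fold change was −0.59 (SE 0.07, adjusted p = 2.69e-05 from edgeR), so that Rbfox3 fell by 33.8%. Rbfox3 was called in all 11 alternatives that kept the pairs, with an adjusted p between 8.2e-14 and 0.000258. Its gene, ENSMUSG00000025576.17, shares no exonic base with another annotated gene.

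Rbfox1, which encodes the RBFOX protein shared by brain and muscle, stood at 72.0, 126 and 67.8 CPM with DMSO. With GSK-126 it stood at 57.8, 80.02 and 60.5 CPM. DMSO replicate 2 was far above the other 5 libraries, and the groups overlapped through GSK-126 replicate 2. Rbfox1 fell by 0.39 on the log2 scale (SE 0.10, adjusted p = 0.0151 from edgeR), with log2 ratios of −0.32, −0.66 and −0.16 in the 3 pairs. The fall was largest in pair 2, and without that pair the log2 fold change was −0.24 and the adjusted p 0.233. Per kb of exon Rbfox3 made up 78.3% of the summed RBFOX level of these 2 genes with DMSO (range 77.0% to 80.6%) and 75.6% with GSK-126 (range 73.2% to 79.0%), ranges that overlap.

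Rbfox2, the third RBFOX gene and a broadly expressed one, was not among the 10. It stood at 361, 429 and 414 CPM with DMSO and at 328, 394 and 370 CPM with GSK-126. Its log2 fold change of −0.14 (SE 0.07) did not pass the test (adjusted p = 0.235 from edgeR). Whether it differed from that of Rbfox3 was not tested.

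In the ELAVL family the gene with the lowest level also had the lowest fitted value, and whether it differed from those of Elavl3 and Elavl4 was not tested. Elavl2 (HuB) stood at 20.99, 23.2 and 17.2 CPM with DMSO and at 15.3, 14.1 and 11.8 CPM with GSK-126. All 3 GSK-126 cultures lay below all 3 DMSO cultures (two-sided exact permutation test, p = 0.1, the lowest possible value). Elavl2 fell by 0.57 on the log2 scale (SE 0.15, adjusted p = 0.0206 from edgeR), and had the fewest counts of the 10 genes, 88 to 249 in a library, and without pair 2 its adjusted p was 0.130.

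Elavl3 (HuC), which is expressed in nearly all postmitotic neurons, stood at 276, 426 and 307 CPM with DMSO. With GSK-126 it stood at 232, 347 and 245 CPM. Its log2 ratios in the 3 pairs, −0.25, −0.30 and −0.33, were close to each other, although the groups overlapped. Elavl3 fell by 0.29 on the log2 scale (SE 0.07, adjusted p = 0.0104 from edgeR). Without pair 1 its adjusted p was 0.0516 and without pair 3 it was 0.0684. Of its exonic bases, 256 overlap Gm49318 on the same strand.

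Elavl4 (HuD), which stabilises mRNAs of growing axons, stood at 106, 167 and 135 CPM with DMSO and at 91.2, 139 and 114 CPM with GSK-126. Each pair was lower with GSK-126, with log2 ratios of −0.21, −0.26 and −0.25. The log2 fold change of −0.24 (SE 0.08) did not pass the test (adjusted p = 0.0582 from edgeR), nor did it in any of the 11 alternatives that kept the pairs.

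The shares of the neuronal ELAVL genes in their summed level per kb overlapped between the groups. Elavl3 made up 63.8% with DMSO and 63.3% with GSK-126, Elavl4 made up 33.0% and 34.0%, and Elavl2 made up 3.29% and 2.71%. Elavl1 (HuR), the member of the family that nearly every cell makes, stood at 108, 132 and 111 CPM with DMSO and at 102, 104 and 102 CPM with GSK-126. Its groups did not overlap, and its log2 fold change of −0.19 (SE 0.08) did not pass the paired test (adjusted p = 0.187 from edgeR).

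In the CELF family 2 of the 3 genes were called. Celf4, whose protein binds mRNAs of synaptic and excitability genes, stood at 401, 563 and 442 CPM with DMSO and at 350, 472 and 338 CPM with GSK-126. Each pair was lower, and the groups overlapped through replicate 2 of GSK-126. Celf4 fell by 0.28 on the log2 scale (SE 0.07, adjusted p = 0.0155 from edgeR). Without pair 3, in which its log2 ratio was the lowest at −0.39, the adjusted p was 0.164.

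Celf5 stood at 53.4, 61.4 and 53.5 CPM with DMSO and at 39.3, 53.3 and 42.1 CPM with GSK-126. The highest GSK-126 culture lay just below the lowest DMSO culture, so the groups did not overlap (two-sided exact permutation test, p = 0.1). Celf5 fell by 0.33 on the log2 scale (SE 0.10, adjusted p = 0.0468 from edgeR), but this call was made in none of the 11 alternatives that kept the pairs. Leaving out pair 1, 2 or 3 moved its adjusted p to 0.351, 0.0697 or 0.117. Of its exonic bases, 543 overlap Gm16105 on the opposite strand, and the strand setting of the counting is not given in the sources used here.

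Celf2, which is made in many tissues besides brain, had the highest CPM of the 10 genes. It stood at 543, 712 and 584 CPM with DMSO and at 484, 636 and 599 CPM with GSK-126. The log2 ratios of −0.17, −0.16 and 0.04 did not share a sign, and the log2 fold change of −0.10 (SE 0.07) did not pass the test (adjusted p = 0.462 from edgeR). When GC content and exon length were corrected for, its sign turned, to 0.070 (adjusted p = 0.533 from edgeR). Of the exonic bases of Celf2, 1961 overlap Gm26565 on the opposite strand.

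The Celf2 share of the summed level per kb of these 3 CELF genes was 27.4% with DMSO (range 26.9% to 27.7%) and 30.1% with GSK-126 (range 28.1% to 33.6%), ranges that did not overlap. The Celf4 share was 62.9% and 60.8%, and the Celf5 share was 9.79% and 9.10%, and for both the ranges overlapped. No test of these shares was run.

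Among the CELF paralogs outside the 10 genes, Celf3 stood at 48.4, 73.0 and 49.97 CPM with DMSO and at 45.2, 72.7 and 36.6 CPM with GSK-126. The fitted log2 difference was −0.18 (SE 0.10, adjusted p = 0.358 from edgeR). Celf6 stood at 7.7, 6.2 and 6.6 CPM with DMSO and at 8.3, 9.7 and 8.8 CPM with GSK-126. It was higher in all 3 pairs, and its groups did not overlap. Its log2 fold change of 0.39 (SE 0.22) did not pass the test either (adjusted p = 0.318 from edgeR). Celf1 is listed at 0 in all 6 libraries although nearly every cell makes it. The cause was not tested, and Celf1 was not compared.

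Neither NOVA gene was called. Nova1, the NOVA gene that predominates in hindbrain and spinal cord, stood at 90.3, 164 and 100 CPM with DMSO and at 89.0, 132 and 92.4 CPM with GSK-126. DMSO replicate 2 was the highest of the 6 libraries, and in pair 1 the log2 ratio was −0.02. The log2 fold change was −0.15 (SE 0.08, adjusted p = 0.298 from edgeR). Of the exonic bases of Nova1, 310 overlap Gm33869 on the same strand.

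Nova2, which predominates in forebrain, stood at 92.3, 121 and 102 CPM with DMSO and at 87.1, 113 and 91.9 CPM with GSK-126. Its log2 ratios were −0.08, −0.10 and −0.15, and its log2 fold change of −0.11 (SE 0.08) did not pass the test (adjusted p = 0.467 from edgeR). Nova2 shares 2652 exonic bases, 31.7% of its exons, with Gm26821 on the opposite strand. Part of its count may belong to that gene, or reads on the shared bases may have been left out of the count. Per kb of all exonic bases, the shared ones included, Nova1 made up 51.1% of the sum of the 2 NOVA genes with DMSO and 50.4% with GSK-126. This near parity depends on how reads on the shared bases were counted, which is not known, and on the exon length used.

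**Figure D2:**
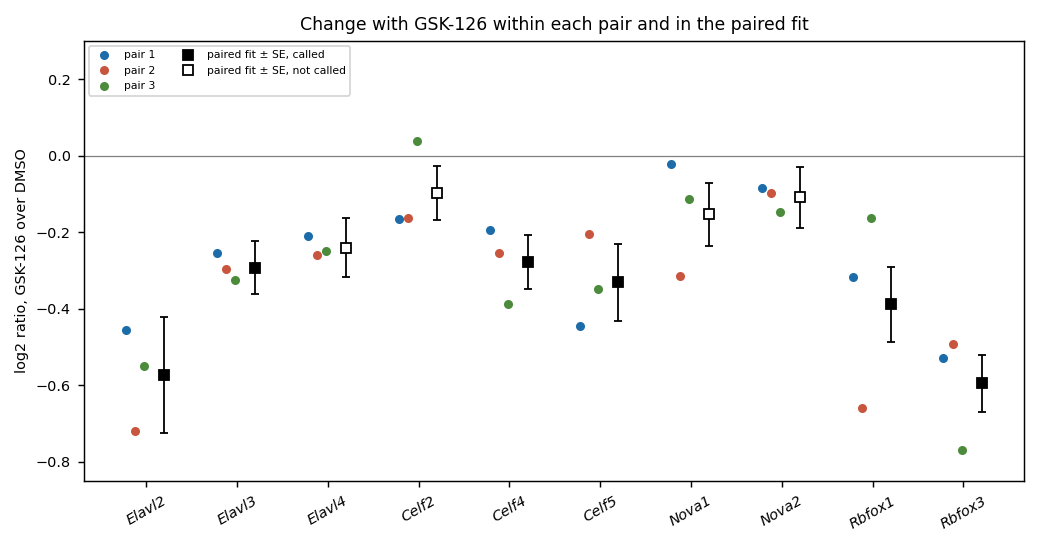
Change of each of the 10 genes with GSK-126. The vertical axis is the log2 ratio of GSK-126 over DMSO; coloured points are the 3 pairs, squares are the fitted log2 fold change of the paired edgeR test with its SE, and filled squares mark an adjusted p under 0.05. The fitted values run from −0.59 for Rbfox3 to −0.10 for Celf2, and the only pair above 0 is pair 3 of Celf2.

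The 10 genes spanned a wide range of levels. Compared per kb of merged exons, which scales by the exon length annotated for each gene, the DMSO means were 71.8 CPM per kb for Rbfox3, 54.6 for Celf4 and 48.8 for Elavl3. Below them lay Elavl4 at 25.2, Celf2 at 23.7 and Rbfox1 at 20.2 CPM per kb. The lowest were Nova1 at 13.5, Nova2 at 12.5, Celf5 at 8.42 and Elavl2 at 2.46 CPM per kb. Neighbours in this order whose DMSO ranges did not overlap were Elavl3 over Elavl4, Nova2 over Celf5 and Celf5 over Elavl2, and for the other 6 neighbouring pairs the DMSO ranges overlapped. Celf2 has 25884 bases of merged exons from all its annotated transcripts, more than 99.8% of tested genes, so its level per kb is low for its count. Merged length exceeds the longest transcript unevenly. It is 25884 against 8856 bases for Celf2 and 8583 against 3995 for Celf4, but 8372 in both for Nova2. The order and the family shares per kb therefore depend on the length used, and levels per longest transcript were not computed.

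The RBFOX and ELAVL sequences were searched in the RNAs of the 10 genes, and those of CELF and NOVA proteins were not. In the longest annotated transcript of each, the RBFOX motif TGCATG was present in 8 of the 10 genes, Elavl2 and Celf4 being without it, against 74.0% of tested genes with a transcript at least as long as the shortest of the 10. Nova1 had 6 such motifs, Nova2 had 3, and Celf2 and Rbfox3 had 2 each. GCATG after a base other than T was not counted, so Elavl2 and Celf4 may still hold it. A run of 7 T, as in the U-rich stretches that ELAVL proteins bind, was present in 9 of the 10 genes, Rbfox3 being without it, against 65.2% of those genes. These letters were searched on the transcript's strand only and are a description, not binding sites.

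Other splicing regulators and bound transcripts were taken from general knowledge as lists, with earlier results of these data known. Of 14 other splicing regulators of neurons, all of them tested, the paired fit called 2 lower and 0 higher, with a median log2 fold change of −0.11. The same fit called 5.09% of all tested genes lower and 3.35% higher. Mbnl2, a muscleblind protein of late brain splicing, stood at 271, 586 and 382 CPM with DMSO and at 178, 339 and 254 CPM with GSK-126. It was lower in all 3 pairs and fell by 0.66 on the log2 scale (SE 0.07, adjusted p = 5.43e-06 from edgeR). Srrm3, a regulator of neuronal microexons, stood at 58.8, 84.5 and 54.2 CPM with DMSO and at 43.4, 66.6 and 47.7 CPM with GSK-126. It fell by 0.33 on the log2 scale (SE 0.10, adjusted p = 0.0389 from edgeR). Both genes were highest in replicate 2 in each group, as the 10 genes were with DMSO. With DESeq2, with upper-quartile or total-count scaling, with no filter, when GC content and length were corrected for, at an adjusted p under 0.01, and without pair 1 or pair 2, the block fit called 1 of the 14. Without pair 3 it called 3.

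Of 12 transcripts known as bound by neuronal ELAVL, RBFOX1 or CELF4 proteins, the paired fit called 2 lower and 1 higher. The shares of all tested genes were 5.09% lower and 3.35% higher, and the median log2 fold change of the 12 was 0.05. Satb1, a chromatin organiser whose mRNA HuD binds, stood at 72.3, 88.7 and 73.7 CPM with DMSO and at 57.5, 65.5 and 54.2 CPM with GSK-126. Its groups did not overlap, and it fell by 0.40 on the log2 scale (SE 0.09, adjusted p = 0.00608 from edgeR). Scn8a, a sodium channel of the axon initial segment whose mRNA CELF4 binds, stood at 167, 268 and 206 CPM with DMSO and at 145, 216 and 153 CPM with GSK-126. It fell by 0.31 on the log2 scale (SE 0.08, adjusted p = 0.0110 from edgeR). Cdkn1a, which encodes the cell cycle inhibitor p21, stood at 96.5, 108 and 239 CPM with DMSO and at 127, 158 and 240 CPM with GSK-126. It rose by 0.31 on the log2 scale (SE 0.09, adjusted p = 0.0405 from edgeR), and pair 3 showed almost no difference. With the block, no bound transcript was called higher without pair 2, with DESeq2 or at an adjusted p under 0.01. The number called higher was 2 without pair 3, with no filter and when GC content and length were corrected for. That correction and the stricter threshold each left 1 called lower.

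The summed levels of the pan-neuronal and granule neuron markers, like that of the 10 genes, were highest in replicate 2 and lower with GSK-126 in every pair, and those of other cell types did not all follow this order. Of the granule neuron markers, Neurod1, Zic1, Zic2, Cbln1 and Pax6 stood at 163 CPM or more in every library. Across the libraries Etv1 ran from 58.4 to 340 CPM and Cbln3 from 47.4 to 226 CPM. Gabra6 ran from 35.6 to 216 CPM and Slc17a7 from 15.2 to 276 CPM. Of the markers of dividing progenitors, Atoh1 had 0 to 7 and Gli1 had 1 to 12 counts in a library, while the proliferation genes Mki67, Top2a and Ccnd1 stood at 74.4 to 136, 78.2 to 125 and 121 to 229 CPM. Of 12 pan-neuronal genes the paired fit called 6 lower and 2 higher, and their summed level ran from 3614 to 5851 CPM with DMSO and from 2961 to 4701 CPM with GSK-126. Of 9 granule neuron markers 7 were called lower and 0 higher, the sum running from 3576 to 6061 CPM and from 2764 to 4485 CPM. The same fit called 5.09% of all tested genes lower and 3.35% higher. Of 5 markers of GABAergic interneurons 3 were called lower, and their sums, 201 to 232 CPM with DMSO and 147 to 184 CPM with GSK-126, did not overlap. Among the DMSO cultures, and among the GSK-126 cultures, the interneuron sum was lowest in replicate 2. In bulk RNA fewer neurons and less RNA per neuron cannot be told apart.

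Other cell types were present as well. The sum of 7 astroglial markers ran from 2338 to 7240 CPM with DMSO and from 2228 to 7599 CPM with GSK-126, lowest in replicate 2 of both groups, where the 10 genes were highest. Of these 7 genes 1 was called higher, where the paired fit called 3.35% of all tested genes higher. Of 10 vascular and fibroblast markers 9 were tested and 4 were called higher, with a sum of 5345 to 7450 CPM with DMSO and 6752 to 8272 CPM with GSK-126. Of 8 oligodendrocyte markers 1 was called higher, with a sum of 470 to 843 CPM with DMSO and 553 to 839 CPM with GSK-126, and of 7 microglial markers 1 was called higher, with a sum of 160 to 335 and 217 to 388 CPM. The sum of 6 progenitor markers ran from 295 to 398 CPM and from 290 to 442 CPM, with 0 of the 4 tested called. The sum of 4 Purkinje cell markers was between 10.8 and 26.5 CPM in all libraries, and Ppp1r17 of that list had at most 1 count. No marker was at 0 in every library. The part of cell makeup in the values of the 10 genes was not tested.

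**Figure D3:**
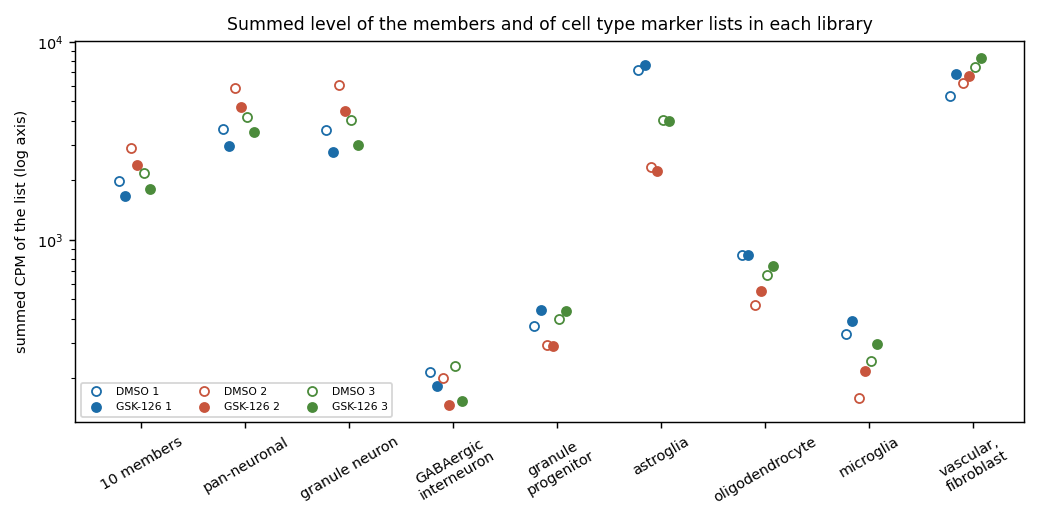
Summed CPM of the 10 genes and of 8 lists of cell type markers in each library. The vertical axis is logarithmic; open circles are DMSO, filled circles are GSK-126, and the colour is the replicate number. The sum of the 10 genes runs from 1977 to 2922 CPM with DMSO and from 1669 to 2383 CPM with GSK-126, is highest in replicate 2 and lower with GSK-126 in every pair, as are the pan-neuronal and granule neuron sums.

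Set against the sum of the 12 pan-neuronal genes of the same library, 2 of the 10 genes were lower with GSK-126 in all 3 pairs, 4 were higher in all 3, and 4 had mixed signs. The pan-neuronal sum itself changed by log2 ratios of −0.29, −0.32 and −0.25 in the 3 pairs. Relative to it, Rbfox3 was lower in all 3 pairs, with log2 ratios of −0.24, −0.18 and −0.51, and Elavl2 was lower in all 3, with −0.17, −0.40 and −0.30. The genes that were higher were Elavl4, Celf2, Nova1 and Nova2, and among those with mixed signs were Elavl3 with a mean of −0.0063 and Celf4 with a mean of 0.0075. Relative to the sum of the 9 granule neuron markers, the same 2 genes, Rbfox3 and Elavl2, were lower in all 3 pairs, and 6 were higher in all 3. Relative to the sum of the 5 GABAergic interneuron markers, Rbfox3 was lower in all 3 pairs, 5 genes were higher in all 3, and Elavl2 was lower in pairs 1 and 2 and at 0.04 in pair 3. These ratios are a description without a test.

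**Figure D4:**
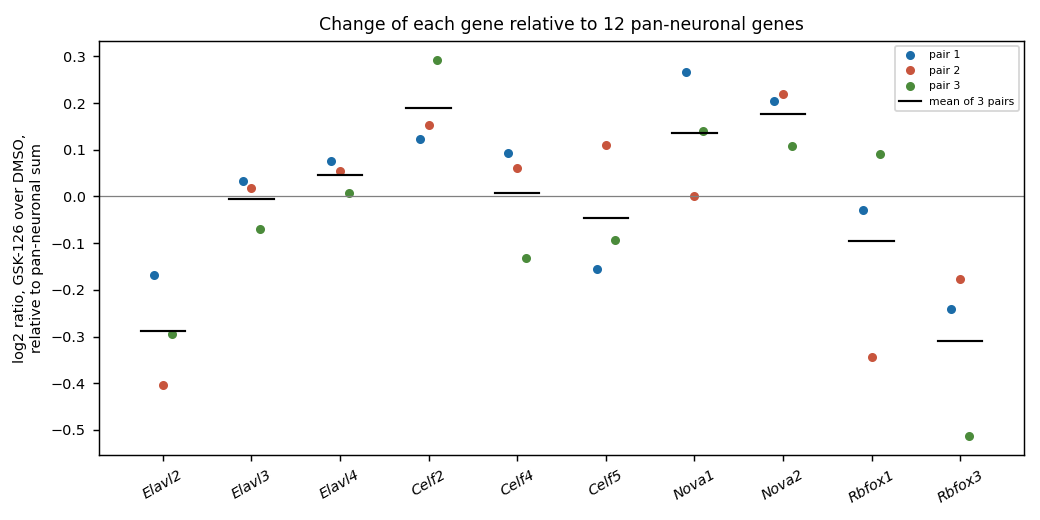
Change of each gene relative to the summed CPM of 12 pan-neuronal genes. The vertical axis is the log2 ratio of GSK-126 over DMSO after division by that sum; points are the 3 pairs and bars are their means. Means run from −0.31 for Rbfox3 to 0.19 for Celf2, and Rbfox3 and Elavl2 are the genes with all 3 points below 0.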

How the data were processed

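RNA was measured in 6 libraries, 3 with DMSO and 3 with GSK-126, grouped by their titles. Per the study's methods and the submitters' processing notes, the authors trimmed reads (Trimmomatic 0.38), aligned them to mm10 (STAR 2.7.2b) and counted them on exons with HTSeq and a Gencode annotation of GRCm38.p4. They deposited raw counts per gene, with no normalization. The Gencode release and strand setting are not given in the sources used here. All 55341 symbols match GENCODE M21, which gave identifiers, coordinates and overlaps. Lines that name no gene held 58.7% to 60.7% of the listed reads and were left out.

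Counts were tested in R 4.3.3 with edgeR 4.0.16 (TMM factors, filterByExpr, quasi-likelihood test, Benjamini-Hochberg adjustment over 16729 genes, calls at an adjusted p under 0.05), first without and then with the replicate number as a block. The pairing comes from the numbers in the titles and from the counts, where libraries with different numbers correlated at 0.0064 or less. Deviations were taken from group means of 3 libraries, so positive same-number correlations make the different-number ones negative on average. The different-number values are therefore not separate evidence for the pairing. The biological coefficient of variation was 24% without and 9.74% with the block. Alternatives were DESeq2 1.42.0, other scalings and filters, a stricter threshold, correcting for GC content and exon length, and leaving out libraries or pairs. The 10 genes are given in full, and all family paralogs and the called genes of the other 2 lists are named. Marker genes are given as sums, and some of them also singly. Members and lists were chosen with earlier results of these data known. Depth was 7407189 to 13092763 counts. The SEs are those of the paired fit. They rest on the spread of the treatment difference across the pairs, drawn for each gene towards that of other tested genes.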

Additional observations from a re-analysis of the deposited data

How the results depend on the processing

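The replicate block decided the calls: without it edgeR called 0 of the 10 genes and 0 genes in all, and with the replicate block 6 of the 10, with 851 genes lower and 561 higher. Without the block DESeq2 called 2 genes lower and 19 higher, and edgeR with no filter 1 and 9. With the block DESeq2 called 4 of the 10 genes (Elavl3, Celf4, Rbfox1 and Rbfox3), with 604 lower and 359 higher in all. Leaving out a pair gave 3 to 4 of the 10 genes, with 496 to 719 genes lower and 337 to 558 higher, the smallest counts being without pair 2. At an adjusted p under 0.01, 1 of the 10 remained (Rbfox3), with 474 lower and 242 higher. Other scalings and filters and the GC and length correction each called 5 of the 10, Celf5 being lost. By total counts 707 genes were lower and 714 higher (49.8% lower, against 60.3% with TMM), and by upper-quartile factors 698 and 727 (49.0%).

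Of the single values, 7 fitted ones turned sign. Leave-one-out fits without the block ran from −0.16 to 0.028 for Celf2, from −0.36 to 0.14 for Nova1, from −0.21 to 0.0073 for Nova2 and from −0.46 to 0.069 for Celf3. The lowest value of each came without GSK-126 replicate 2 and the highest without DMSO replicate 2, and Celf2 was also above 0 without GSK-126 replicate 1 (0.026), and Celf3 without GSK-126 replicate 3 (0.043). With the block Celf2 turned under the GC and length correction (0.070). Relative to the pan-neuronal sum, the mean pair ratios of 5 of the 10 genes turned sign: Celf4 (0.0075), Elavl4 (0.046), Celf2 (0.19), Nova1 (0.14) and Nova2 (0.18). For the same 2 left-out libraries the unblocked values of Rbfox3 were −0.90 and −0.31, those of Elavl3 −0.48 and −0.09, those of Celf4 −0.43 and −0.12, and those of Rbfox1 −0.57 and −0.08. The lowest count of the 10 genes was 88 (Elavl2), and that of the tested paralogs was 66 (Celf6).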
